A study of Mus musculus with 9 samples.

Results

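The 42 genes described here encode the TNF and NF-kB signalling pathway, and they were followed in sorted mouse microglia at 1 day after induction of an NMO-like lesion. The genes were taken by symbol from a list of pathway members, put together with earlier results of these data known but with no threshold on a measured value, and all 42 were present among the 23238 gene symbols of the deposited tables. They fell into 7 roles, namely the ligand TNF with its receptors and the receptors Cd40 and Cd14 (5 genes), adaptors and ubiquitin ligases (13), kinases (7), NF-kB subunits (5), the IkB family (5), the A20 axis with other TNF-induced proteins (4) and target genes (3). The filter on low counts left 41 of the 42 for testing. Cd40, a co-stimulatory receptor of the TNF receptor family, did not pass it, with read counts of 0, 6 and 0 for Normal, 9, 23 and 0 for NMO and 0, 0 and 0 for NMO+CL.

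TNF binds its receptors and recruits adaptor proteins and ubiquitin ligases, which activate kinases that phosphorylate the IkB inhibitors. IkB proteins hold NF-kB dimers in the cytoplasm, and their degradation lets the dimers enter the nucleus and switch on inflammatory genes. Among these genes are inhibitors of the pathway itself, IkB alpha and A20, which limit the response, and in the brain microglia are a main source of TNF.

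Microglia were sorted as CD45+CD11b+P2ry12+ cells from the brains of wild-type female C57BL/6N mice aged 12 weeks, and 3' RNA-seq was performed on 3 libraries per group, each from a pool of 3 mice. The Normal group received no treatment. The NMO group received an injection of NMO-IgG, the autoantibody to aquaporin-4 purified from patient plasma, with human complement into the right striatum. The NMO+CL group received the same injection 6 h after intraperitoneal clodronate liposomes, which deplete phagocytic monocytes and macrophages. No library of microglia given control IgG, an injection alone or liposomes without clodronate was analysed here, so the antibody and the injection cannot be told apart in NMO versus Normal, nor the drug and its carrier in NMO+CL versus NMO. The lesion was on 1 side, and the cells were prepared from isolated brains.

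Library totals ranged from 5788234 to 7837219 reads, and levels are given as CPM, the read count of a gene corrected for library size with TMM scaling. All 10 microglia markers were found, with a summed level of 34138 to 38655 CPM for Normal, 29405 to 34059 for NMO and 19831 to 27529 for NMO+CL. At adjusted p under 0.05, 7 of the 10 were lower in NMO+CL than in Normal, beside 4.43% of all genes. In NMO+CL versus NMO 3 were lower, beside 1.59% of all genes called in either direction. In NMO versus Normal 1 was lower, beside 0.496% called in either direction. P2ry12, whose protein was used for the sort, ranged from 2055 to 2665 CPM in Normal and from 266 to 449 CPM in NMO+CL. The 9 neutrophil markers summed to 100.7 to 579 CPM for Normal, 156 to 477 for NMO and 294 to 1346 for NMO+CL, and Normal 1 and NMO+CL 1 were the highest of their groups. The 8 monocyte markers, of which 1 was called higher in NMO+CL versus Normal, summed to 33.0 to 66.9, 38.7 to 84.2 and 48.5 to 99.8 CPM, and the 6 border macrophage markers to 158 to 308, 10.8 to 191 and 220.2 to 412 CPM, in Normal, NMO and NMO+CL. Cbr2 made up most of the border macrophage sum, at 125 to 272 CPM in Normal, 0 to 159 in NMO, with NMO 2 at 0, and 185 to 395 in NMO+CL, while Mrc1 was at 7.85 to 20.4 CPM over all libraries and Cd163 was at 0 in all treated libraries. The T cell gene Cd3e was at 0 in all libraries, and the 7 lymphocyte markers found summed to at most 7.17 CPM. The 9 astrocyte and oligodendrocyte markers summed to 228 to 282 CPM for Normal, 138 to 169 for NMO and 98.5 to 172 for NMO+CL. Of the 6 tested, 2 were called lower in NMO+CL versus Normal. Slc1a3 held most of this sum, its mean going from 175.6 CPM (Normal) to 107.5 (NMO) and 95.5 (NMO+CL). Mag was next, with means of 47.2, 31.1 and 29.9, while Gfap, Aldh1l1 and Mog stayed near 0. Only Aqp4 among those tested had a higher mean in both treated groups (8.49 and 7.66) than in Normal (5.06). Its libraries overlapped between groups. The part of these marker levels in the results below was not tested, and in pooled cells a change in the mix of cells and a change in RNA per cell cannot be told apart.

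**Figure D1:**
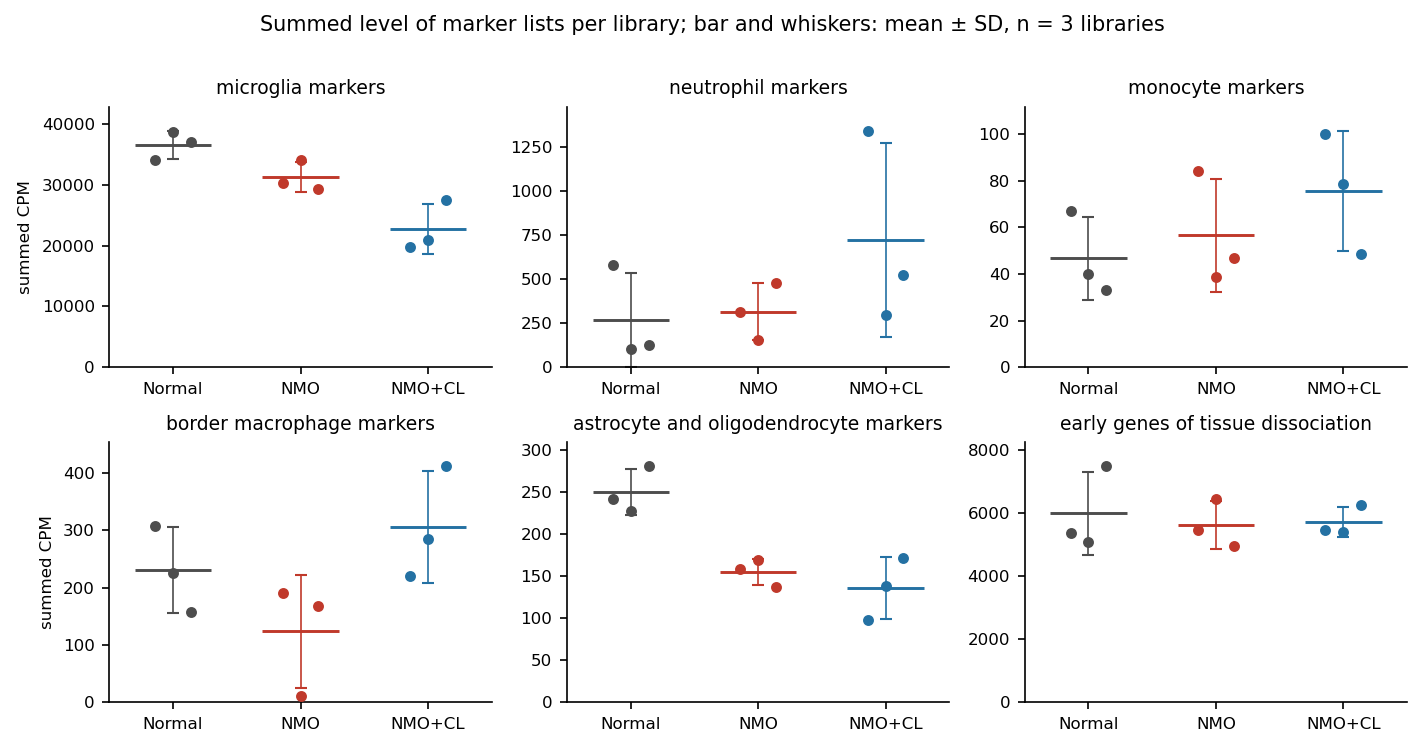
Summed level of each marker list (y axis, CPM, starting at 0) in each library of Normal, NMO and NMO+CL (x axis); points are libraries, bars and whiskers the mean ± SD of 3, and a whisker that would pass below 0 ends there. Microglia markers were lowest in NMO+CL (19831 to 27529 CPM), and Normal 1 (579 CPM) and NMO+CL 1 (1346 CPM) held the highest neutrophil marker sums of their groups.

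The stretches just upstream of the transcription start are shown for the 5 pathway genes that passed the test in any comparison and for Tnfaip3, which did not, since they let the response be read beside the letters NF-kB is known to bind. Each runs 5' to 3' along the gene's own strand and covers the 150 bases before the RefSeq start (GRCm38.p6). For Bcl3 it goes on through 12 bases after the start to the end of the match. They lie at chr12:55492648-55492797 (minus strand) for Nfkbia, chr7:19822744-19822905 (minus) for Bcl3, chr17:35202008-35202157 (minus) for Tnf, chr6:113638317-113638466 (plus) for Irak2, chr10:7956124-7956273 (minus) for the first of 2 listed starts of Tab2, and chr10:19015411-19015560 (minus) for the first of 2 listed starts of Tnfaip3. Capitals mark letters that match the NF-kB consensus on either strand.
Nfkbia: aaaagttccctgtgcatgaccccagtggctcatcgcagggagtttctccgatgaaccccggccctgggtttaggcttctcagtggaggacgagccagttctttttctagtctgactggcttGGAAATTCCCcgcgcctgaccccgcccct
Bcl3: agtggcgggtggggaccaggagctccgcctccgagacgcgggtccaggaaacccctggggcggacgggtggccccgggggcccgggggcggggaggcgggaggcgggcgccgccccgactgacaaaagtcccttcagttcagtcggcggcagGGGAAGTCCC
Tnf: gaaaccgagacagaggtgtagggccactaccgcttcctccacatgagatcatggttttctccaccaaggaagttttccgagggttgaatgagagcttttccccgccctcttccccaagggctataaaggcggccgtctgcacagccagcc
Irak2: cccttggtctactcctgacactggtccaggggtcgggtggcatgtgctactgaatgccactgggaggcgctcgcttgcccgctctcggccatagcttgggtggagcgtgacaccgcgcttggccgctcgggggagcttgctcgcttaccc
Tab2: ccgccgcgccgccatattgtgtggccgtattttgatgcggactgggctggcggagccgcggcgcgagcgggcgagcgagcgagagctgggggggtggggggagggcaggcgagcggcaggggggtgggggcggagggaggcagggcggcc
Tnfaip3: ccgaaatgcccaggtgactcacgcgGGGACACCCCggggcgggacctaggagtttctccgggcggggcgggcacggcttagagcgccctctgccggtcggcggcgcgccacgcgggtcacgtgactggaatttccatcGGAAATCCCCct

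The Nfkbia and Bcl3 stretches each held 1 match and the Tnfaip3 stretch held 2, while no match to these letters lay in the Tnf, Irak2 and Tab2 windows. Sites further upstream and partial matches were not searched for, so a window without a match does not mean a gene without a site. RefSeq windows, of 250 bases before to 50 after a start, were at hand for 34 of the 42 genes, and 12 of the 34 (35.3%) held a match in at least 1 window, against 9.55% of the 27025 gene symbols with a window. Counted by window, 15 of 45 windows of the pathway genes (33.3%) and 8.46% of all 32851 windows held one. The 12 genes were Nfkbia, Bcl3, Nfkbie, Nfkb2, Rel, Tnfaip2, Tnfaip3, Tnip1, Traf3, Irak1, Map3k7 and Sod2. Of these, Nfkbia and Bcl3 rose in NMO+CL versus Normal, and the other 10 passed the test in no comparison. A match is a description of the letters and not of binding, which was not measured.

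The first question was whether the pathway's own transcripts changed in microglia at 1 day of the NMO-like lesion. In NMO versus Normal, 0 of the 41 tested genes passed adjusted p under 0.05 by edgeR, beside 0.496% of all 12292 genes tested. At unadjusted p under 0.05 there were 5 (12.2%), Bcl3, Nfkbia and Ikbke with higher and Irak2 and Tnip1 with lower levels, beside 9.51% of all genes. DESeq2 called 1 gene, Bcl3, and limma-voom called 0. The median log2 fold change of the 41 was 0.01, beside -0.01 over all genes. All 3 NMO libraries lay above all 3 Normal libraries for 1 gene, Bcl3, beside 9.21% of all genes, and all 3 lay below for 5 genes, Irak2, Birc2, Tab2, Rel and Tnip1, beside 8.2%.

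The second question was whether clodronate treatment before the lesion changed the pathway in microglia. Between NMO+CL and NMO, 0 of 41 genes passed adjusted p under 0.05 by edgeR, beside 1.59% of all genes, and DESeq2 and limma-voom also called 0. At unadjusted p under 0.05 there were 5 (12.2%), Nfkbia, Rel and Tnip2 with higher and Tab2 and Relb with lower levels, beside 12.4% of all genes. The median log2 fold change was 0.11, beside -0.01 over all genes. The groups did not overlap for 5 genes that were higher, Ripk1, Rel, Nfkbia, Bcl3 and Tnip2, beside 7.89% of all genes, and for 2 that were lower, Tab2 and Relb, beside 9.22%.

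The third comparison was that of NMO+CL versus Normal, which shares its libraries with both comparisons above. Of the 41 genes 5 (12.2%) passed adjusted p under 0.05, beside 9.23% of all genes. Tnf, Nfkbia and Bcl3 rose, which is 7.32% beside 4.79% of all genes called higher, and Irak2 and Tab2 fell, which is 4.88% beside 4.43% called lower. DESeq2 and limma-voom called these same 5. At unadjusted p under 0.05 there were 13 (31.7%), beside 22.3% of all genes. The median log2 fold change was 0.15, beside -0.01. All 3 NMO+CL libraries lay above all 3 Normal libraries for 7 genes (17.1%), Tnf, Myd88, Ripk1, Map3k8, Nfkbia, Bcl3 and Tnip2, beside 13.8% of all genes, and below for 3 (7.32%), Irak2, Map3k7 and Tab2, beside 14.9%. The share called was thus close to that over all genes, and nothing particular to the pathway is read from it.

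**Figure D2:**
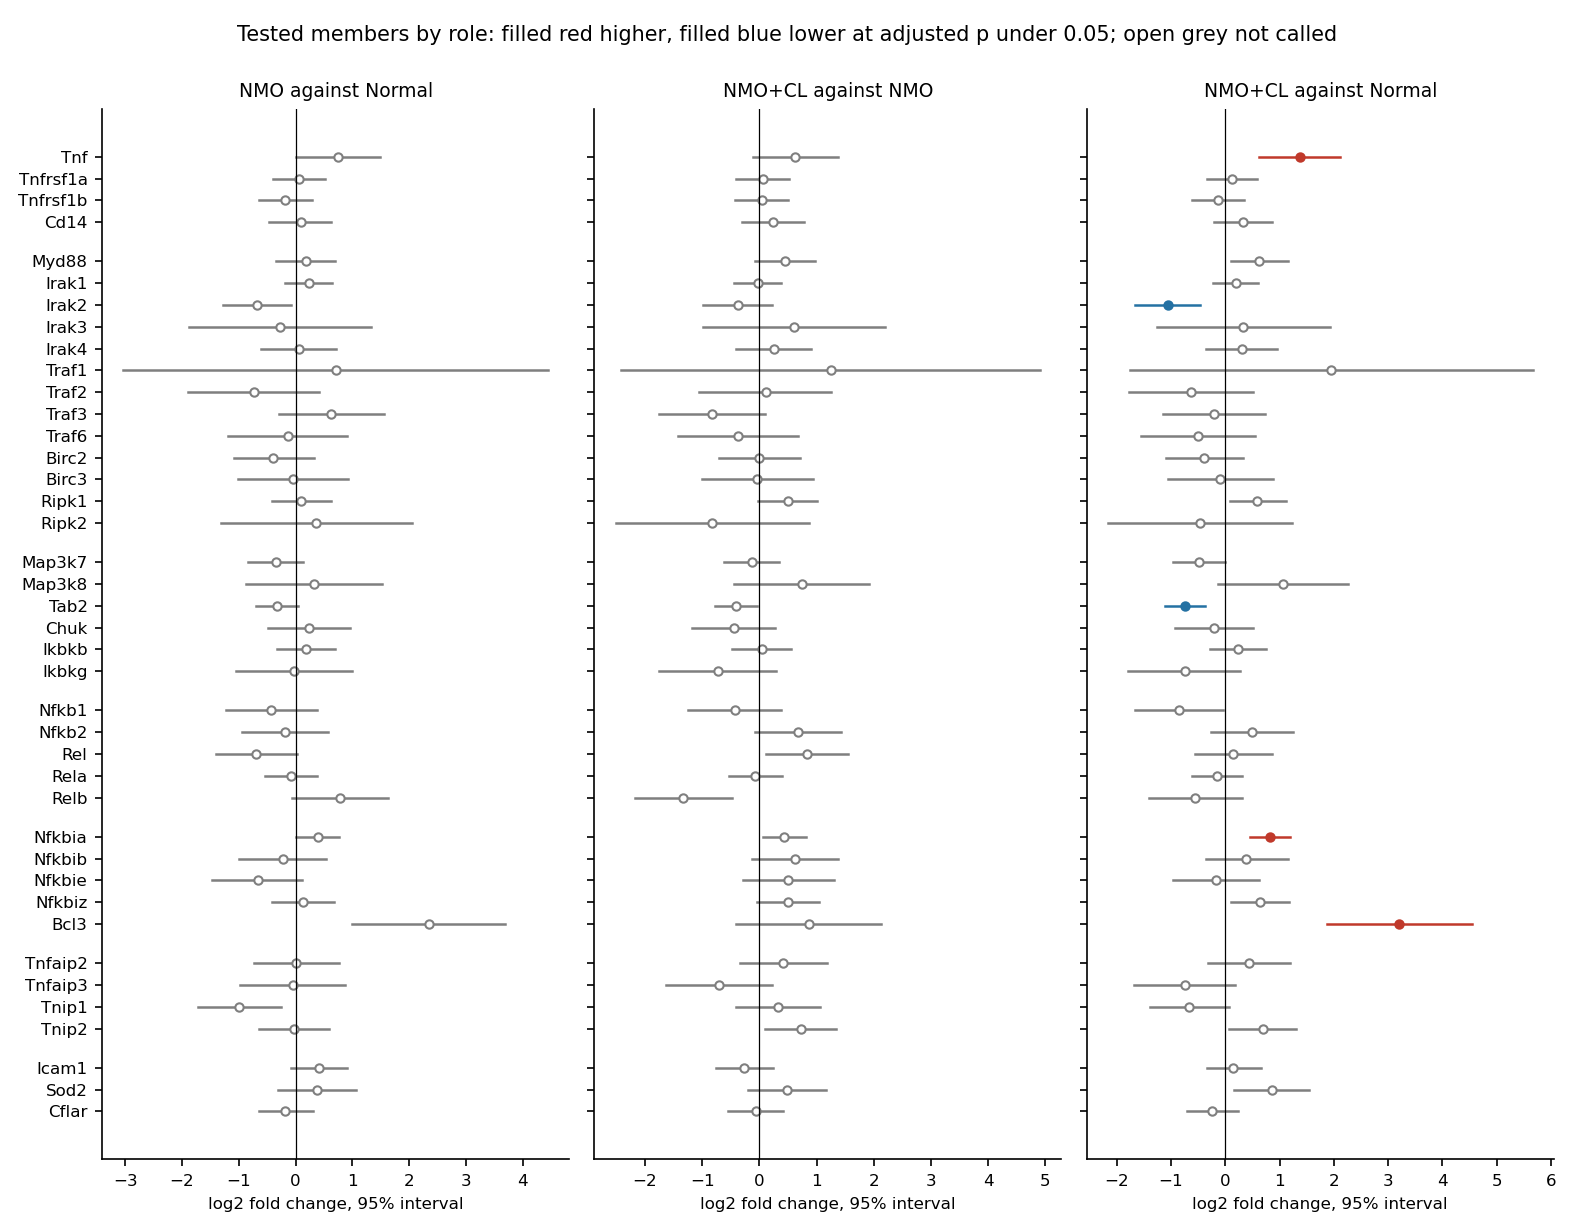
Log2 fold change (x axis, with its 95% interval) of 40 tested pathway genes (y axis, grouped by role) in the 3 comparisons; filled red is higher and filled blue lower at adjusted p under 0.05, open grey not called, and Ikbke, at 0 in all Normal libraries, is left out. Only the NMO+CL versus Normal panel holds filled points, Tnf, Nfkbia and Bcl3 to the right of 0 and Irak2 and Tab2 to the left.

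Tnf, the ligand that gives the pathway its name, lies at chr17:35199381-35202007 on the minus strand (GRCm38). Its level was 26.9, 20.2 and 16.5 CPM in the Normal libraries, 38.2, 47.5 and 20.7 in NMO, and 51.5, 75 and 38.0 in NMO+CL. Every NMO+CL library exceeded every Normal library, while NMO overlapped both groups. Tnf was 2.58 times higher in NMO+CL than in Normal (log2 fold change 1.37 ± 0.35 SE, 95% interval 0.62 to 2.12, adjusted p = 0.0219). The log2 fold change was 0.74 (-0.00 to 1.49, adjusted p = 0.534) in NMO versus Normal and 0.63 (-0.11 to 1.37, adjusted p = 0.5) in NMO+CL versus NMO. The call was lost without Normal 2 (adjusted p = 0.0864), without Normal 3 (0.109) and without NMO+CL 2 (0.139), with log2 fold changes of 1.08 to 1.34, so it depended on which libraries were kept.

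The TNF receptors passed the test in no comparison. Tnfrsf1a, the broadly expressed receptor with a death domain, was at 155, 133 and 174 CPM for Normal, 146, 165 and 171 for NMO and 199.6, 184 and 116 for NMO+CL, and the 3 groups overlapped. Its log2 fold changes were 0.06 (-0.40 to 0.52), 0.06 (-0.40 to 0.52) and 0.12 (-0.34 to 0.58) in NMO versus Normal, NMO+CL versus NMO and NMO+CL versus Normal. Tnfrsf1b, the second receptor, which binds TRAF2 and has no death domain, was at 219, 269 and 337 CPM for Normal, 282, 235 and 212 for NMO and 176, 286 and 288 for NMO+CL. Its log2 fold changes were -0.18 (-0.65 to 0.29), 0.04 (-0.43 to 0.51) and -0.14 (-0.61 to 0.34) in the same order. The intervals of both receptors in NMO+CL versus Normal end at 0.58 and 0.34 at the upper side, below the lower bound of Tnf (0.62). A difference between these genes was not tested. Cd14, a co-receptor that hands lipopolysaccharide to Toll-like receptor 4, ranged from 228 to 239 CPM for Normal, 191 to 278 for NMO and 165 to 407 for NMO+CL, with NMO+CL 2 the highest and NMO+CL 3 the lowest of all 9 libraries.

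Among the 13 adaptors and ubiquitin ligases, which pass the signal from the receptors to the kinases, Irak2 fell in NMO+CL versus Normal. Irak2, a kinase-like protein that carries signals from interleukin-1 and Toll-like receptors to TRAF6, lies at chr6:113638467-113695026 on the plus strand. Its level was 49.6, 53.6 and 73.2 CPM for Normal, 40.4, 41.4 and 28.0 for NMO and 23.5, 32.6 and 28.3 for NMO+CL. Every Normal library exceeded every NMO and NMO+CL library, and the NMO and NMO+CL libraries overlapped. In NMO+CL it was 0.479 times the Normal level (log2 fold change -1.06 ± 0.29 SE, -1.66 to -0.46, adjusted p = 0.0259), with -0.68 (adjusted p = 0.456) in NMO versus Normal and -0.38 (0.653) in NMO+CL versus NMO. The call was lost without Normal 2 (adjusted p = 0.0613), Normal 3 (0.155), NMO+CL 1 (0.0874), NMO+CL 2 (0.0544) or NMO+CL 3 (0.0521). Of 2366 stretches of 50 bases at the 3' end of Irak2, 59 occur in transcripts of other genes, and reads with multiple alignments were counted.

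The other 12 adaptors and ligases passed the test in no comparison. Myd88, the adaptor of interleukin-1 and most Toll-like receptors, was at 47.5, 77.1 and 66.5 CPM for Normal, 59.5, 84.3 and 72.4 for NMO and 78.5, 99.3 and 117 for NMO+CL. Its NMO+CL libraries all exceeded its Normal libraries, with a log2 fold change of 0.63 (0.10 to 1.15, adjusted p = 0.136). Ripk1, the kinase scaffold recruited to the TNF receptor, had a log2 fold change of 0.59 (0.08 to 1.11, adjusted p = 0.154) in NMO+CL versus Normal and 0.50 (-0.02 to 1.01, adjusted p = 0.429) against NMO. Its NMO+CL libraries, at 61.7 to 85.1 CPM, lay above all Normal (39.0 to 53.2) and NMO (45.1 to 53.4) libraries. Traf3, an inhibitor of the non-canonical NF-kB pathway, was at -0.83 (-1.76 to 0.10, adjusted p = 0.472) in NMO+CL versus NMO. The remaining 9 (Irak1, Irak3, Irak4, Traf1, Traf2, Traf6, Birc2, Birc3 and Ripk2) had log2 fold changes of -0.82 to 1.95 over the 3 comparisons, and their lowest adjusted p was 0.593. Among these Irak4 has an exon of Twf1 antisense to its 3' end, and the strand setting is not given in the sources used here. Summed over the 13 genes, the level was 439.8 to 518 CPM for Normal, 471 to 502 for NMO and 499.9 to 527 for NMO+CL.

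Among the 7 kinases and kinase-binding proteins, Tab2 fell. Tab2, which binds ubiquitin chains and brings the kinase TAK1 to them, lies at chr10:7905653-7956230 on the minus strand. Its level was 350.3, 317 and 341 CPM for Normal, 241, 281 and 279 for NMO and 216, 212 and 174 for NMO+CL. The 3 groups did not overlap, and NMO lay between Normal and NMO+CL. Tab2 was 0.597 times its Normal level in NMO+CL (log2 fold change -0.74 ± 0.18 SE, -1.11 to -0.37, adjusted p = 0.012). In NMO versus Normal the log2 fold change was -0.33 (-0.70 to 0.04, adjusted p = 0.597), and in NMO+CL versus NMO it was -0.41 (-0.78 to -0.04, adjusted p = 0.334). Leaving out any 1 library kept the call, with adjusted p of at most 0.0468, and leaving out Normal 1 and NMO+CL 1 together gave -0.76 (adjusted p = 0.0583).

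Map3k7, which encodes TAK1, the partner of Tab2, ranged from 62.3 to 87.5 CPM for Normal, 56.4 to 64.1 for NMO and 53.8 to 59.2 for NMO+CL, and its NMO+CL libraries all lay below Normal. Its log2 fold change there was -0.48 (-0.96 to -0.00, adjusted p = 0.222). Map3k8, the kinase Tpl2 that is released when the p105 precursor is degraded, had a log2 fold change of 1.06 (-0.13 to 2.26, adjusted p = 0.299) in NMO+CL versus Normal. Ikbke, an inducible IkB-kinase-like kinase, had counts of 0, 0 and 0 for Normal, 15, 21 and 0 for NMO and 26, 95 and 0 for NMO+CL, so that 1 library of each treated group had no read. Its adjusted p was 0.433 in NMO and 0.0602 in NMO+CL versus Normal, and no fold is given for a gene at 0 in all Normal libraries. The core IkB kinase genes Chuk, Ikbkb and Ikbkg had log2 fold changes of -0.75 to 0.24, with a lowest adjusted p of 0.422. Summed over the 7 genes, levels were 499.6 to 599 CPM for Normal, 460.0 to 501 for NMO and 356 to 445 for NMO+CL, with no overlap between NMO+CL and either other group. Most of that difference was Tab2 itself, since the other 6 genes summed to 182 to 258 CPM in Normal, 216 to 220.1 in NMO and 182 to 229 in NMO+CL, and these ranges overlapped.

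The 5 NF-kB subunits passed the test in no comparison. Nfkb1, which encodes p105 and its product p50, was at 71.2, 29.8 and 83.3 CPM for Normal, 42.4, 65.2 and 29.3 for NMO and 46.1, 33.2 and 22.1 for NMO+CL, and the groups overlapped. Its log2 fold changes were -0.43 (-1.23 to 0.38, adjusted p = 0.851), -0.43 (-1.25 to 0.38, 0.728) and -0.86 (-1.67 to -0.05, 0.196) in NMO versus Normal, NMO+CL versus NMO and NMO+CL versus Normal. Rela, the main transactivating subunit p65, was at 92.9, 150.5 and 123 CPM for Normal, 109.5, 111 and 126 for NMO and 95.4, 106 and 129 for NMO+CL. Its log2 fold changes, -0.08 (-0.54 to 0.38), -0.07 (-0.53 to 0.39) and -0.15 (-0.61 to 0.31), all had intervals that include 0.

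Relb, the partner of the non-canonical subunit p52, was at 15.8, 12.6 and 29.6 CPM for Normal, 33.8, 37.7 and 27.9 for NMO and 15.8, 15.6 and 8.33 for NMO+CL. Every NMO+CL library lay below every NMO library, with a log2 fold change of -1.33 (-2.18 to -0.47, adjusted p = 0.136), and Normal overlapped both. Rel, which encodes c-Rel, was at 30.8, 28.3 and 21.7 CPM for Normal, 19.9, 14.7 and 15.5 for NMO and 36.2, 23.8 and 29.5 for NMO+CL. All NMO libraries of Rel lay below all others, with log2 fold changes of -0.69 (-1.40 to 0.03, adjusted p = 0.561) in NMO versus Normal and 0.84 (0.12 to 1.55, adjusted p = 0.3) in NMO+CL versus NMO. Relb had a log2 fold change of 0.78 (-0.07 to 1.63, adjusted p = 0.59) in NMO versus Normal, so its signs were opposite to those of Rel in both comparisons, which share the NMO libraries, and none of these values passed the test. Nfkb2, the precursor of p52, had a log2 fold change of 0.67 (-0.08 to 1.43, adjusted p = 0.472) in NMO+CL versus NMO, with NMO+CL 2 at 57.2 CPM and the other 8 libraries at 17.6 to 27.4 CPM. An exon of Psd lies antisense to the 3' end of Nfkb2, and without a stated strand setting reads of the 2 genes cannot be told apart.

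The IkB family held both of the other genes that rose, and its summed level was 637 to 867 CPM for Normal, 819.5 to 1002 for NMO and 1161 to 1373 for NMO+CL, with no overlap between NMO+CL and either other group. Nfkbia made up most of the sum. The other 4 genes summed to 139 to 180.2 CPM in Normal, 143 to 159.9 in NMO and 186 to 267 in NMO+CL. Those sums again had no overlap between NMO+CL and either other group, but the 4 include Bcl3, which was itself called. Taken singly, Nfkbiz, Nfkbib and Nfkbie each overlapped between NMO+CL and both other groups. The median log2 fold change of the 5 genes was 0.13 in NMO versus Normal, 0.50 in NMO+CL versus NMO and 0.64 in NMO+CL versus Normal, beside -0.01 over all genes in each. Nfkbia, which encodes IkB alpha, the inhibitor that NF-kB itself induces, lies at chr12:55489410-55492647 on the minus strand. It was at 542, 498 and 687 CPM for Normal, 677, 847 and 732 for NMO and 1027, 1137 and 894 for NMO+CL. All NMO+CL libraries exceeded all others, and 1 NMO library, NMO 1, lay below the highest Normal library. Nfkbia was 1.77 times higher in NMO+CL than in Normal (log2 fold change 0.82 ± 0.18 SE, 0.45 to 1.2, adjusted p = 0.00632), with 0.39 (0.01 to 0.76, adjusted p = 0.507) in NMO versus Normal and 0.44 (0.07 to 0.81, adjusted p = 0.293) in NMO+CL versus NMO. Leaving out any 1 library kept the call (adjusted p at most 0.048), and without both Normal 1 and NMO+CL 1, the libraries with the highest neutrophil marker sums of their groups, the log2 fold change was 0.79 (adjusted p = 0.0557).

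Bcl3, an atypical IkB protein that works in the nucleus with p50 and p52 homodimers, lies at chr7:19808462-19822770 on the minus strand. Its level was 8.13, 1.2 and 0.673 CPM in Normal (51, 8 and 4 reads), 14.2, 15.6 and 21.3 in NMO, and 26.7, 39.5 and 26.4 in NMO+CL. The 3 groups did not overlap, and Normal 1 lay well above the other Normal libraries. Bcl3 was 9.21 times higher in NMO+CL than in Normal (log2 fold change 3.20 ± 0.63 SE, 1.87 to 4.54, adjusted p = 0.00505), and this call held in all 16 alternative fits, with log2 fold changes of 2.73 to 5.11. In NMO versus Normal the log2 fold change was 2.34 (1.00 to 3.68, adjusted p = 0.147), and in NMO+CL versus NMO it was 0.86 (-0.41 to 2.13, adjusted p = 0.621). Without Normal 1 the values against Normal were 4.13 in NMO (adjusted p = 0.0081) and 5.01 in NMO+CL (adjusted p = 0.000275). Bcl3 was also called in NMO versus Normal by DESeq2 (adjusted p = 0.0353) and with no filter on low counts (0.00182). Normal 1 also held the highest neutrophil marker sum of its group (579 CPM), and the part of these markers in its Bcl3 level was not tested.

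The other 3 IkB genes passed no test. Nfkbiz, a nuclear IkB protein induced by interleukin-1 and Toll-like receptor ligands, was at 65.7, 41.4 and 59.6 CPM in Normal and 103, 90.6 and 64.7 in NMO+CL (log2 fold change 0.64, 0.10 to 1.17, adjusted p = 0.143), with 1 NMO+CL library below the highest Normal library. Nfkbib and Nfkbie, which encode IkB beta and IkB epsilon, had log2 fold changes of 0.39 (-0.36 to 1.15) and -0.17 (-0.96 to 0.62) in that comparison. The 3' end of Nfkbib has an exon of Ccer2 on the opposite strand, so its reads carry the same doubt as those of Nfkb2. In NMO+CL versus NMO all 5 IkB genes had a positive log2 fold change, from 0.44 to 0.86, and none passed adjusted p under 0.05. The 4 tested genes of the ligand and receptor group were also all positive there, as were 24 of all 41 (58.5%), and the medians of the other 6 roles ran from -0.13 to 0.38.

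**Figure D3:**
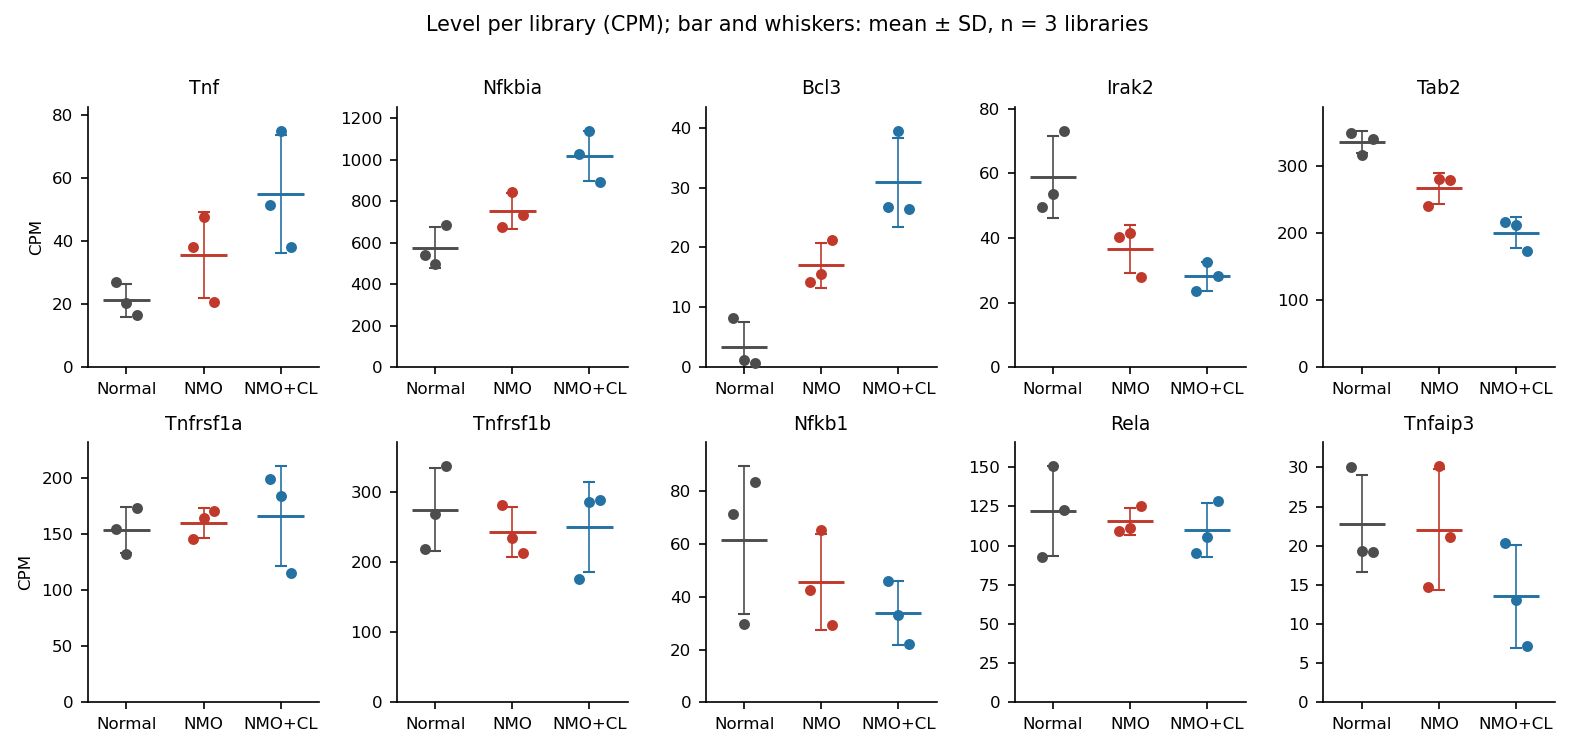
Level (y axis, CPM, starting at 0, scale differing by panel) of 10 pathway genes in each library of Normal, NMO and NMO+CL (x axis); points are libraries, bars and whiskers the mean ± SD of 3, and a whisker that would pass below 0 ends there. Tnf, Nfkbia and Bcl3 have every NMO+CL point above every Normal point, Irak2 and Tab2 every NMO+CL point below, and the groups overlap for Tnfrsf1a, Tnfrsf1b, Nfkb1, Rela and Tnfaip3.

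No gene of the A20 axis, which acts on ubiquitin chains and limits the signal, passed the test. Tnfaip3, which encodes A20, was at 30.0, 19.3 and 19.2 CPM for Normal, 14.8, 30.2 and 21.1 for NMO and 20.3, 13.1 and 7.21 for NMO+CL, and the groups overlapped. Its log2 fold changes were -0.05 (-0.97 to 0.87, adjusted p = 0.992), -0.70 (-1.63 to 0.22, 0.56) and -0.75 (-1.68 to 0.18, 0.354) in NMO versus Normal, NMO+CL versus NMO and NMO+CL versus Normal. The last interval ends below the lower bound of Nfkbia in the same comparison (0.45), and a difference between these genes was not tested. The windows of both genes held matches to the NF-kB consensus. Tnip1, an A20-binding protein, was at 32.0, 40.0 and 34.3 CPM for Normal, 15.3, 19.0 and 19.2 for NMO and 17.1, 18.1 and 32.2 for NMO+CL. Every NMO library of Tnip1 lay below every Normal library, with a log2 fold change of -0.99 (-1.72 to -0.26, adjusted p = 0.312). Tnip2, the second A20-binding protein listed, was at 28.5 to 38.2 CPM for Normal, 22.7 to 43.1 for NMO and 46.4 to 58.1 for NMO+CL, where all libraries exceeded both other groups (log2 fold change 0.69 and adjusted p = 0.168 against Normal, 0.72 and 0.303 against NMO). Tnfaip2, a further TNF-induced gene, had log2 fold changes of 0.01, 0.42 and 0.44 in the 3 comparisons.

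The 3 target genes on the list passed no test. Icam1, the adhesion molecule bound by leukocyte integrins, was at 83.0 to 112 CPM for Normal, 103 to 147 for NMO and 75.9 to 126 for NMO+CL, and its log2 fold change was 0.41 (-0.08 to 0.90, adjusted p = 0.641) in NMO versus Normal, with an exon of Gm47079 antisense to its 3' end. Sod2, the mitochondrial superoxide dismutase, had a log2 fold change of 0.86 (0.17 to 1.55, adjusted p = 0.117) in NMO+CL versus Normal, and of its 2899 stretches of 50 bases at the 3' end 566 occur in other genes. Cflar, an inhibitor of caspase-8, had log2 fold changes of -0.18, -0.06 and -0.24. Such shared stretches were also found for Cflar (396 of 4703), Birc3 (162 of 2440), Map3k7 (155 of 2103), Irak1 (78 of 3936), Chuk (58 of 2698), Ikbkb (17 of 5040) and Tab2 (8 of 1914), and for Tnf, Nfkbia and Bcl3 there were 0.

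**Figure D4:**
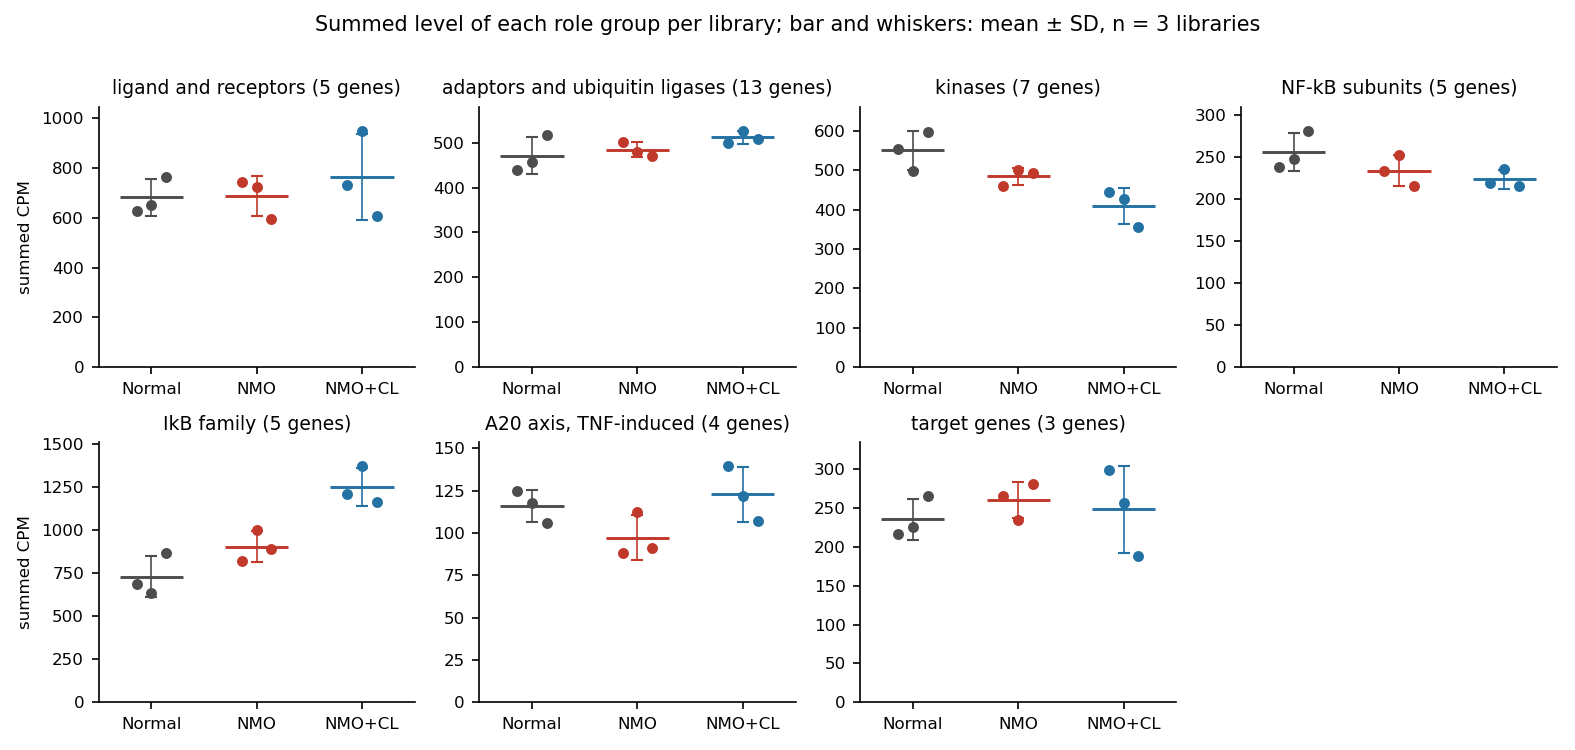
Summed level of each role group (y axis, CPM, starting at 0, scale differing by panel) in each library of Normal, NMO and NMO+CL (x axis); points are libraries, bars and whiskers the mean ± SD of 3. The IkB family is highest in NMO+CL (1161 to 1373 CPM), mostly through Nfkbia, and the kinases are lowest there (356 to 445 CPM), mostly through Tab2, without which their groups overlap, while the other 5 groups overlap between NMO+CL and at least 1 other group.

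Among the tested genes, 40 with a value above 0 in Normal and 41 in each treated group, the SD over 3 libraries was, at the median, 23.6% of the mean for Normal, 19.0% for NMO and 32.0% for NMO+CL. Mean levels reached down to 0 CPM in Normal (Ikbke), 1.47 in NMO and 4.59 in NMO+CL, and 5 or 6 of the 41 genes were under 10 CPM in each group. Traf1, an inducible TRAF protein, had a log2 fold change of 1.95 with an interval of -1.76 to 5.66 in NMO+CL versus Normal.

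Other components of the pathway that were not among the 42, namely further receptors, ligands and regulators, were read from a second list of 42 genes, of which 39 were tested. By edgeR 0 passed the test in NMO versus Normal, with 7 (17.9%) at unadjusted p under 0.05 beside 9.51% of all genes, 1 called by DESeq2 (Tlr2) and 0 by limma-voom. Between NMO+CL and NMO 0 passed, with 2 (5.13%) at unadjusted p under 0.05 beside 12.4% of all genes, and 0 called by DESeq2 or limma-voom. In NMO+CL versus Normal 2 rose and 1 fell (7.69% of 39), beside 9.23% of all genes. DESeq2 called 5, adding Ticam2 and Traf5, and limma-voom called 3, with Casp8 in place of Ly96. Tlr2, a receptor for bacterial lipoproteins, was at 53.1, 29.2 and 43.9 CPM for Normal, 112, 93.3 and 75.1 for NMO and 133, 191 and 67.1 for NMO+CL, and both treated groups lay above Normal in every library. Its log2 fold change was 1.63 (0.96 to 2.30, adjusted p = 0.00361) in NMO+CL and 1.15 (adjusted p = 0.15) in NMO versus Normal. Tnfrsf11a, which encodes RANK, rose by 1.14 on the log2 scale (0.55 to 1.72, adjusted p = 0.0149), from 40.8 to 76.0 CPM in Normal to 98.2 to 148 in NMO+CL. Without Normal 2, Normal 3, NMO+CL 1 or NMO+CL 2 its adjusted p was 0.0928, 0.0683, 0.0516 and 0.0534. Ly96, which encodes MD-2, the partner of Toll-like receptor 4, fell to 2.56 to 3.36 CPM in NMO+CL from 10.8 to 16.5 in Normal (log2 fold change -2.16, adjusted p = 0.0371), and 12 of 16 alternatives took it past the threshold, including each fit that lacked a Normal or NMO+CL library (adjusted p of 0.0618 to 0.176), NMO 1 (0.0589) or NMO 2 (0.0503).

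Known NF-kB target genes outside the 42 were read from a list of 36, of which 31 were tested. This list too was put together with earlier results of these data known. Its medians and shares, here and below, are therefore descriptions, and no enrichment is read from them. The median log2 fold change of the 31 was 0.60 in NMO versus Normal, 0.13 in NMO+CL versus NMO and 0.67 in NMO+CL versus Normal, beside -0.01 over all genes. In NMO versus Normal 2 rose (6.45%, beside 0.496% of all genes called), namely Il1b and Ccl2, while DESeq2 also called Ccl7 and limma-voom called Il1b alone. Il1b, the cytokine interleukin-1 beta, was at 15, 8.73 and 18.8 CPM for Normal, 91.2, 65.7 and 44.5 for NMO and 66.5, 67.7 and 73.8 for NMO+CL, and neither treated group overlapped Normal. It was 4.74 times higher in NMO (log2 fold change 2.24 ± 0.32 SE, 1.58 to 2.91, adjusted p = 0.00372) and 4.89 times higher in NMO+CL (2.29, adjusted p = 0.000293) than in Normal, and both calls held in all 16 alternatives. Between NMO+CL and NMO its log2 fold change was 0.05 (-0.60 to 0.70, adjusted p = 0.983). Ccl2, the chemokine that attracts monocytes, was at 4.94, 5.87 and 14 CPM for Normal, 62.2, 95.4 and 16.7 for NMO and 25.5, 15.4 and 14.7 for NMO+CL (2.82, 1.72 to 3.92, adjusted p = 0.0258 in NMO versus Normal). That call was lost without Normal 1 (0.153), Normal 2 (0.154), NMO 1 (0.0866) or NMO 2 (0.131), and by limma-voom (0.159).

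Of the 31 targets, 2 rose and 2 fell in NMO+CL versus NMO (12.9%, beside 1.59% of all genes called), and of these 4 DESeq2 called Ier3, Ccl7 and Nlrp3 and limma-voom called Ier3. Ier3, an immediate early gene linked to cell survival, was at 55.3, 59.9 and 60.1 CPM for Normal, 80.7, 82.0 and 47.9 for NMO and 117, 222 and 215 for NMO+CL. Its log2 fold change was 1.39 against NMO (0.84 to 1.95, adjusted p = 0.0132, and 0.0876 without NMO+CL 2) and 1.66 against Normal (adjusted p = 0.000852). Saa3, an acute-phase protein, was at 0, 0 and 1.35 CPM for Normal, 1.26, 12.6 and 2.88 for NMO and 74.1, 106 and 15.4 for NMO+CL (log2 fold change 3.53 against NMO, adjusted p = 0.042). The size of that value also depended on NMO 2, without which it was 4.99 (adjusted p = 0.00724). Against NMO 8 of 16 alternatives were past the threshold, including those without NMO 1 (0.138), NMO 3 (0.113), NMO+CL 1 (0.0686), NMO+CL 2 (0.234) and Normal 2 (0.0506), while the call against Normal (7.18, adjusted p = 0.000467) was lost by limma-voom alone (0.0964). Without Normal 3, the single Normal library with Saa3 reads, the value against Normal depends on the fit and is no bound, and without Normal 2 it was 6.59. Ccl7, a monocyte-attracting chemokine related to Ccl2, was at 34.2, 31.1 and 11.8 CPM in NMO and 2.92, 2.27 and 1.28 in NMO+CL, with a log2 fold change of -3.56 (-4.81 to -2.32, adjusted p = 0.00789, and 0.064 without NMO 1). Nlrp3, the inflammasome sensor, was at 73.8, 86.5 and 56.7 CPM in NMO and 29.2, 34.5 and 29.0 in NMO+CL (log2 fold change -1.23, -1.85 to -0.60, adjusted p = 0.0484). Of 16 alternatives 11 took it past the threshold, among them the fits without NMO 1 (0.149), NMO 2 (0.147), Normal 2 (0.0506), Normal 3 (0.0784) or any 1 NMO+CL library (0.0943 to 0.132).

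In NMO+CL versus Normal 5 of the 31 targets rose (16.1%, beside 4.79% of all genes) and 1 fell (3.23%, beside 4.43%). DESeq2 called these 6 and also Bcl2a1d and Il1rn, and limma-voom called Il1b, Ier3, Cxcl16 and Lcn2. Beside Il1b, Ier3 and Saa3 these were Cxcl16, a membrane-bound chemokine, and Bcl2a1a, an anti-apoptotic BCL2 relative. Cxcl16 ranged from 37.3 to 61.4 CPM in Normal and 66.8 to 146 in NMO+CL (1.15, 0.49 to 1.81, adjusted p = 0.0278), and without Normal 2, Normal 3, NMO+CL 1 or NMO+CL 2 the adjusted p was 0.137, 0.0928, 0.117 and 0.0843. Bcl2a1a ranged from 23.2 to 28.4 CPM in Normal and 36.7 to 80.0 in NMO+CL (1.15, 0.48 to 1.81, adjusted p = 0.0298). It has near-identical copies, and reads could be split among them, so its own value is uncertain, and without Normal 1, 2 or 3 or NMO+CL 1 or 2 its adjusted p was 0.0507 to 0.203. The log2 fold change of Nlrp3 was -1.02 (adjusted p = 0.0399), and without Normal 1, in which it was at 93.2 CPM against 41.8 and 53.3 in the other Normal libraries, the value was -0.62 (adjusted p = 0.27). The call was also lost without Normal 3 (0.067), NMO 1 (0.0578) or any 1 NMO+CL library (0.0804 to 0.0958).

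**Figure D5:**
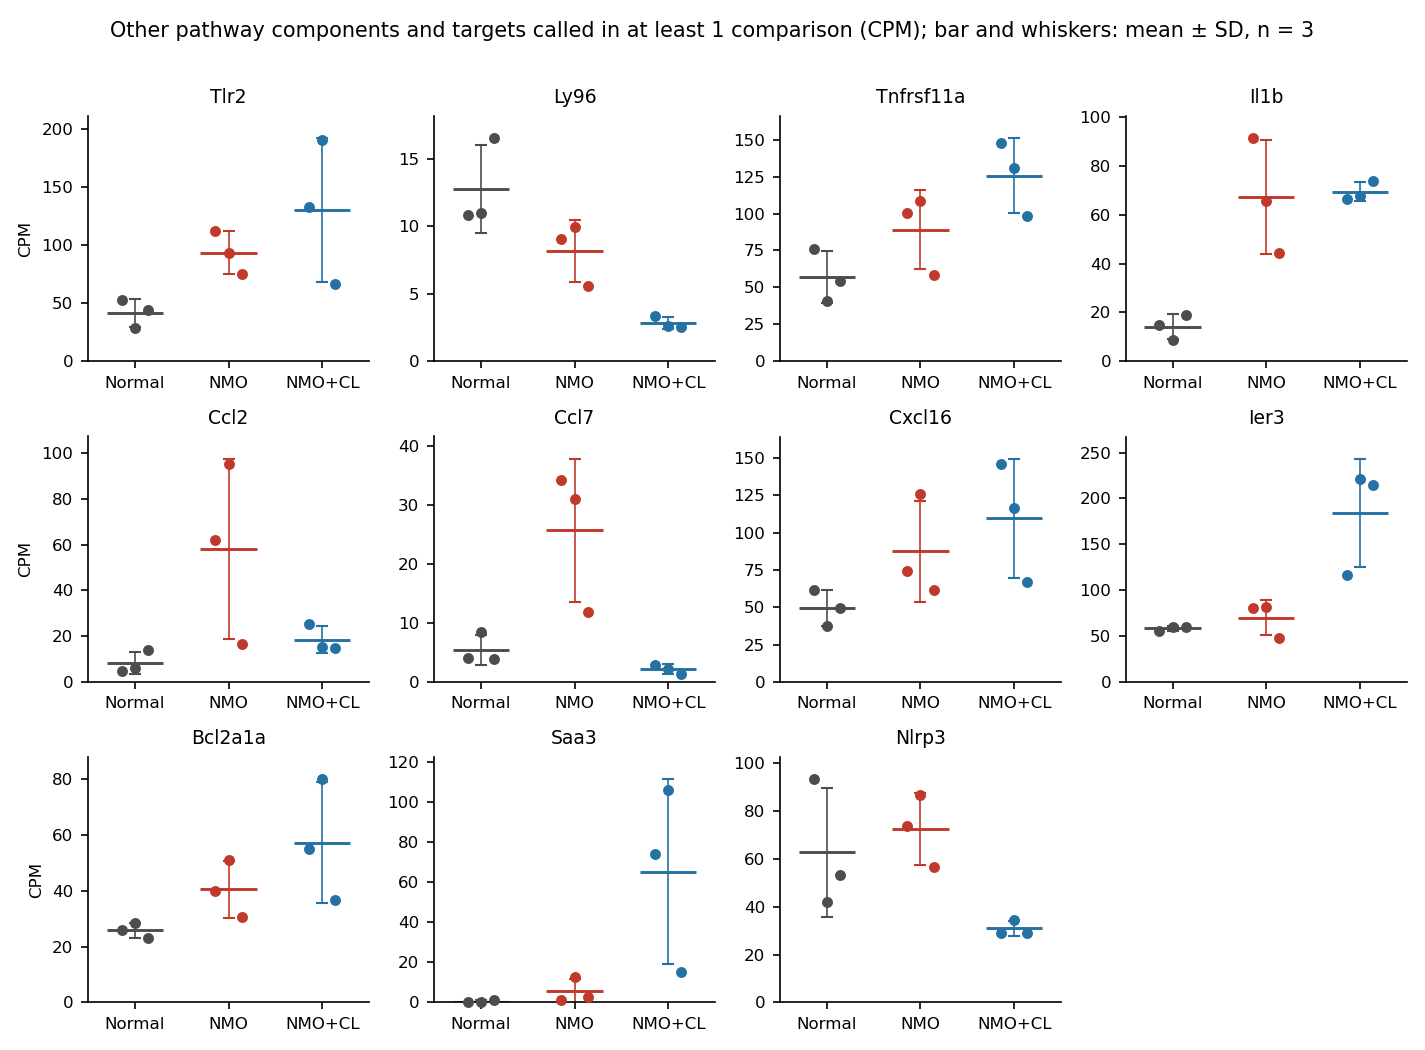
Level (y axis, CPM, starting at 0, scale differing by panel) of the 11 other pathway components and targets called in at least 1 comparison, in each library of Normal, NMO and NMO+CL (x axis); points are libraries, bars and whiskers the mean ± SD of 3, and a whisker that would pass below 0 ends there. Il1b lies above Normal in every NMO and NMO+CL library, Ccl2 and Ccl7 have their highest mean in NMO, and Ier3 and Saa3 are highest in NMO+CL.

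Early genes that tissue dissociation can induce summed to 5105 to 7509 CPM for Normal, 4958 to 6451 for NMO and 5425 to 6265 for NMO+CL, and 1 of the 15 (6.67%, beside 4.79% of all genes), Ier2, rose in NMO+CL versus Normal (log2 fold change 1.21, adjusted p = 0.0354). Ier2 was at 10.7 to 16.0 CPM in Normal, 24.0 to 32.8 in NMO and 24.3 to 40.2 in NMO+CL, so that both treated groups lay above Normal, with a log2 fold change of 1.08 (adjusted p = 0.241) in NMO versus Normal. The part of dissociation in the values above was not tested.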

How the data were processed

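Microglia of 9 libraries (Normal, NMO and NMO+CL, 3 each) were measured by QuantSeq 3' RNA-seq. The authors deposited a raw read count per gene for each library, with Bowtie2, bedtools and mm10 named in the submitters' processing notes and, in the study's methods, unique and multiple alignments counted. The annotation and the strand setting are not given in the sources used here. Counts of 23282 entries were summed to 23238 symbols, of which Rn45s, a ribosomal RNA gene, took 16.0% to 31.0% of a library.

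Groups were taken from the labels. Counts were tested with edgeR 4.0.16 (quasi-likelihood F-test, two-sided) in R 4.3.3 over all 9 libraries, with 1 coefficient per group, TMM scaling, filterByExpr (minimum count 10, minimum total 15) and Benjamini-Hochberg adjustment over 12292 genes. Genes were called at adjusted p under 0.05. SE and 95% intervals came from the fitted Fisher information and the quasi-dispersion. The common biological coefficient of variation was 0.519. P-values measure the spread between pooled libraries. DESeq2 1.42.0, limma-voom (limma 3.58.1), other scalings, no filter, a replicate block and leaving out libraries were alternatives. Same-numbered libraries were not treated as pairs, and the labels do not say whether they were prepared together. Their deviations from the group means had correlations of -0.0148 to 0.0302, which cannot tell whether a preparation was shared.

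Values were given per library for pathway genes called in any comparison and for Tnf, Tnfrsf1a, Tnfrsf1b, Nfkb1, Rela, Nfkbia and Tnfaip3, and up to 3 further examples per role, with the smallest unadjusted p, were given by level or log2 fold change. Of the 2 other pathway lists, up to 6 called genes per comparison and list were named. The pathway genes and all lists were chosen with earlier results of these data known. Positions came from GENCODE M21 (GRCm38), and promoters from RefSeq.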

Additional observations from a re-analysis of the deposited data

How the results depend on the processing

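The counts of called genes, the medians of the 41 genes and 45 log2 fold changes, of the called pathway genes and of Tnfrsf1a, Tnfrsf1b, Nfkb1, Rela and Tnfaip3 in all 3 comparisons and of the other components and targets where they were called, were recomputed under 16 alternatives, of which 15 were planned and 1, leaving out Normal 1 and NMO+CL 1 together, was chosen after seeing the data, since these libraries held the highest neutrophil marker sums of their groups. Of 720 values for single genes 613 kept their direction and their side of the threshold. The median log2 fold changes of the 41 genes moved by less than the spread between libraries in every alternative. For the other values the cause of a change was not tested. All genes called in NMO versus Normal numbered 61, and 96 with library totals alone, 223 with no filter, 222 by DESeq2, 27 without both libraries and 20 to 75 without 1 library. In NMO+CL versus NMO they numbered 196, and 496 with no filter, 461 by DESeq2 and 51 to 231 without 1 library. In NMO+CL versus Normal they numbered 1134, and 658 without both libraries and 649 to 1263 without 1 library. Pathway genes called higher in NMO versus Normal numbered 0, and 1, Bcl3, with no filter, by DESeq2, without both libraries and without Normal 1 (0 to 1 without 1 library). In NMO+CL versus Normal 3 were called higher, 1 without both libraries and 2 to 5 without 1 library, and 2 were called lower, 0 without both libraries and 1 to 2 without 1 library. With the replicate block the pathway counts did not change (3 higher and 2 lower), and the calls of Ccl2, Ly96 and Nlrp3 were lost (adjusted p of 0.0691, 0.0641 and 0.0535, and 0.053 for Nlrp3 against Normal). By limma-voom the calls of Ccl2, Ccl7, Ly96, Nlrp3, Saa3 and Bcl2a1a were lost. Sign changes occurred among pathway genes that were not called, with log2 fold changes near 0. With library totals alone NMO versus Normal was 0.02 for Rela and 0.09 for Tnfaip3, and with the replicate block Tnfrsf1b was 0.00 in NMO+CL versus NMO. Without both libraries Rela was 0.04 and Tnfrsf1a -0.08 in NMO+CL versus NMO, Tnfrsf1a was -0.02 in NMO+CL versus Normal, and Tnfaip3 was 0.19 in NMO versus Normal. Without 1 library, for NMO versus Normal, NMO+CL versus NMO and NMO+CL versus Normal, Rela ranged from -0.25 to 0.10, -0.20 to 0.02 and -0.31 to 0.03, and Tnfrsf1a from -0.03 to 0.14, -0.09 to 0.26 and -0.03 to 0.32. Tnfrsf1b ranged from -0.08 to 0.24 and -0.27 to 0.06 in the latter 2, and Tnfaip3 from -0.35 to 0.19 in the first.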
